A study of Mus musculus with 2 samples.

Results

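Transcription factors that mark the regions of the developing brain were followed in neural stem cells of a library labelled psicor and of one labelled sh1. These are called control and knockdown here, and the series is named for CCDC25. The set holds 40 genes, textbook factors of the dorsal and ventral forebrain, the eye and hypothalamus, the midbrain, the hindbrain and the dorsal midline. They were chosen by name, but with earlier results of these data known. Of the 40 members, 32 were among the 19595 genes of the deposited count table, and 25 of these had a mean of at least 1 CPM (a gene's count relative to the scaled size of its library) over both libraries. The 8 members without a row were Six6, Rax, En1, Pax3, Lmx1b, Hoxa2, Hoxb2 and Dbx1. The rows of the table summed to at least 2 counts over both libraries, and no value is given for these 8 genes.

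The sequenced RNA came from neural stem cells of the brain, taken from embryos of the ICR mouse strain at embryonic day 13. The control library carries the label psicor and the genotype WT, the knockdown library the label sh1 and the genotype KO, and the series is named for CCDC25. The design text states triplicates, while the table holds 1 count column per group and whether a column is 1 culture, a pool or a sum is not stated in the labels. Nor do they give the construct behind each name, the brain part dissected or the time in culture. With 1 library per group no difference was tested, and each 95% interval is an exact conditional binomial interval of a ratio that covers counting error only.

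The control library held 16549682 counts and the knockdown library 16058407, and 3 counts corresponded to 0.178 and 0.190 CPM. Ccdc25 went from 32.8 to 26.1 CPM between control and knockdown, giving a ratio of 0.794 (0.697 to 0.904). Its log2 fold of -0.33 lies inside the middle 50% of all genes past 1 CPM (-0.36 to 0.36). Ccdc25 is thus lower in the knockdown library, but by no more than a typical gene differs. The names control and knockdown stand for the labels psicor and sh1 and are not words of the labels. All 8 neural stem cell markers were present in both libraries, Sox2 with 4849 control and 7514 knockdown counts. The summed level of the 8 neuron markers went from 2797 to 1262 CPM and that of the 6 astrocyte markers from 291 to 4258 CPM. Apoe made up most of the astrocyte sum, at 151 and 3484 CPM. The 8 oligodendrocyte lineage markers went from 2883 to 4660 CPM, mostly Olig1 (1751 and 2432 CPM) and Olig2 (1087 and 1401 CPM). The other 6 markers of that list differed by more, with log2 folds from 2.94 (Pdgfra) to 6.44 (Gpr17). The 8 mesenchyme and meninges markers summed to 333 and 42.0 CPM, of which Acta2 alone held 261 and 22.8 CPM. The 6 macrophage markers summed to 35.5 and 11.7 CPM and the 3 listed endothelial markers to 2.37 and 1.14 CPM. Lum, Csf1r, Cx3cr1, Ptprc and Cdh5, all defining markers of these last cell types, were at 0 in the knockdown library and had 7 to 27 counts in the control. Other markers of the same types did not follow them: Pecam1 of endothelium had 8 and 9 counts, and Foxc1 of the meninges (28 and 17) and Cd68 of macrophages (215 and 151) lay within 2-fold. In RNA from many cells at once, fewer cells of a type and less RNA per cell cannot be told apart.

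The neural tube is divided along its length and from its dorsal to its ventral side by homeodomain and zinc-finger transcription factors, each active in a limited territory. Neighbouring factors often repress each other, so that a progenitor's combination of factors records where in the brain it came from. Cortical progenitors carry Emx, Lhx2 and Pax6, ganglionic eminence progenitors carry Gsx2 and Nkx2-1, and Hox genes are active from the hindbrain backwards. Several members also act again later, in neurons that leave the progenitor zone.

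Upstream sequences are shown for members whose levels are described below, to set the genes with higher counts in the knockdown library (Lhx2, Pax6, Barhl2) beside those with lower counts (Nkx2-1, Otx2) and Gsx2, whose ratio interval includes 1. RefSeq start sites in GRCm38.p6 were matched by symbol for 31 of the 40 members, with 37 windows. Irx1 and Irx5, the members that were 2-fold higher, had no window, nor had En2, which was 2-fold lower. Among the members shown, only Nkx2-1 differed by 2-fold or more. The 6 windows shown are those of members past 1 CPM in which the 250 bases before the start site held no annotated exonic base. Each runs 5′ to 3′ on the gene's strand and ends just before the start site. Capitals mark matches, on either strand, to TAATTA (a core bound by many homeodomain proteins), CCAAT (the CCAAT box), AGGTCA (a nuclear receptor motif) and GGGCGG (the GC box).
Lhx2, chr2:38339031-38339280, plus strand: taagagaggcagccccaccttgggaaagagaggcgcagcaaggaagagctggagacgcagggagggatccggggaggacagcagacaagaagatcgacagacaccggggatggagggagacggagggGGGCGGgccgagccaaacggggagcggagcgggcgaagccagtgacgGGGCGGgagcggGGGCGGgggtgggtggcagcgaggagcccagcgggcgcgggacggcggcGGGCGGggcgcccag
Pax6, chr2:105668646-105668895, plus strand: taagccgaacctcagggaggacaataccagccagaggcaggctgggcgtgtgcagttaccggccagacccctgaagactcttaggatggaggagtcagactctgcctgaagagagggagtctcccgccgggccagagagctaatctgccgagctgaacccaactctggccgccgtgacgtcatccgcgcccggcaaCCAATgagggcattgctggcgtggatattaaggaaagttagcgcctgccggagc
Barhl2, chr5:106458167-106458416, minus strand: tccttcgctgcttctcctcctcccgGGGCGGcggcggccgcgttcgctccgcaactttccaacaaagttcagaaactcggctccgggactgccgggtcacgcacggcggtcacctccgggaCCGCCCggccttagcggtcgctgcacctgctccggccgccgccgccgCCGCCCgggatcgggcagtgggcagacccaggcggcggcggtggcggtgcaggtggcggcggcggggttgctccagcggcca
Gsx2, chr5:75075351-75075600, plus strand: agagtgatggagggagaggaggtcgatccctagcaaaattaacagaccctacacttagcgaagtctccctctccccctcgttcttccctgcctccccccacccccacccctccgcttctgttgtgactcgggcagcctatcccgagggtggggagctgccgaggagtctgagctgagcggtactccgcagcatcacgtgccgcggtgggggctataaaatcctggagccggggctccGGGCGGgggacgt
Nkx2-1, chr12:56536909-56537158, minus strand: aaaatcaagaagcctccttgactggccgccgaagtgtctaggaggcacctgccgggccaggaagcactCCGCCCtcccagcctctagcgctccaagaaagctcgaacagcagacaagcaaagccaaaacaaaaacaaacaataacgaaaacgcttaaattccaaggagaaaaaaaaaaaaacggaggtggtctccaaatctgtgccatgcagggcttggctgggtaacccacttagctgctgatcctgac
Otx2, chr14:48667645-48667894, minus strand: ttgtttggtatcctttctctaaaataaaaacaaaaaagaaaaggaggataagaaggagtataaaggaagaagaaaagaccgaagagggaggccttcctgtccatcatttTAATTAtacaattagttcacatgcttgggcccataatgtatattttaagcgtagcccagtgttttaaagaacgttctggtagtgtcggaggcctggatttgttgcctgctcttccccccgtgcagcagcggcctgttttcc

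The Lhx2 window had a GC content of 72.8% with 25 CpG dinucleotides and 4 GC boxes, and the Barhl2 window 74.8% with 36 CpG and 3 GC boxes. The Pax6 window had 60.8% GC, 15 CpG and a CCAAT box 54 bases before the start site. The Nkx2-1 window had 9 CpG at 50.8% GC and the Otx2 window 6 CpG at 42.0% GC. The windows of Emx1 and Isl1, both lower after knockdown, held 30 and 33 CpG. All 250 bases of the Emx1 window are annotated exon, and Isl1 is under the 1 CPM minimum. Whether CpG content follows direction over the set was not tested. Gsx2, with 63.6% GC and 16 CpG, had a single GC box 13 bases before its start. Over all 37 member windows, some of them wholly exonic, the median was 60.8% GC and 15 CpG. It was 52.4% and 6 over 32851 RefSeq windows of the same length. TAATTA was found in 2 of the 37 member windows and in 4.84% of all windows, and the 2 are alternative starts of Otx2, whose printed window holds it 141 bases before the start. CCAAT was found in 18 of 37 and in 33.8% of all windows, GGGCGG in 15 and 32.7%, and AGGTCA in 1 and 14% (the Zic5 window). A match of letters is a description of the window and not evidence of binding.

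Forebrain factors made up most of the members' signal in both libraries. Per kilobase of exon, the 8 dorsal forebrain members held 61.5% of the summed level of all members in control cells and 69.8% after knockdown. The 7 ventral forebrain members held 23.1% and 15.9%, the eye and hypothalamus members 5.51% and 1.82%, the dorsal midline members 6.33% and 8.90%, the hindbrain members 2.17% and 2.88% and the midbrain members 1.37% and 0.712%. On the same scale the highest member was Lhx2, at 35.0 CPM per kb in control cells and 53.9 after knockdown. Nr2f1 came next at 22.5 and 28, followed by Meis2 at 13.8 and 16.5 and Dmrta2 at 12.3 and 23.2, which exchanged places between the libraries. Emx1 moved from rank 5 to rank 13 of the 25 members, Six3 from 8 to 17, Nr2f2 from 11 to 18 and Nkx2-1 from 15 to 24. Irx5 moved the other way, from rank 23 to 14.

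**Figure D1:**
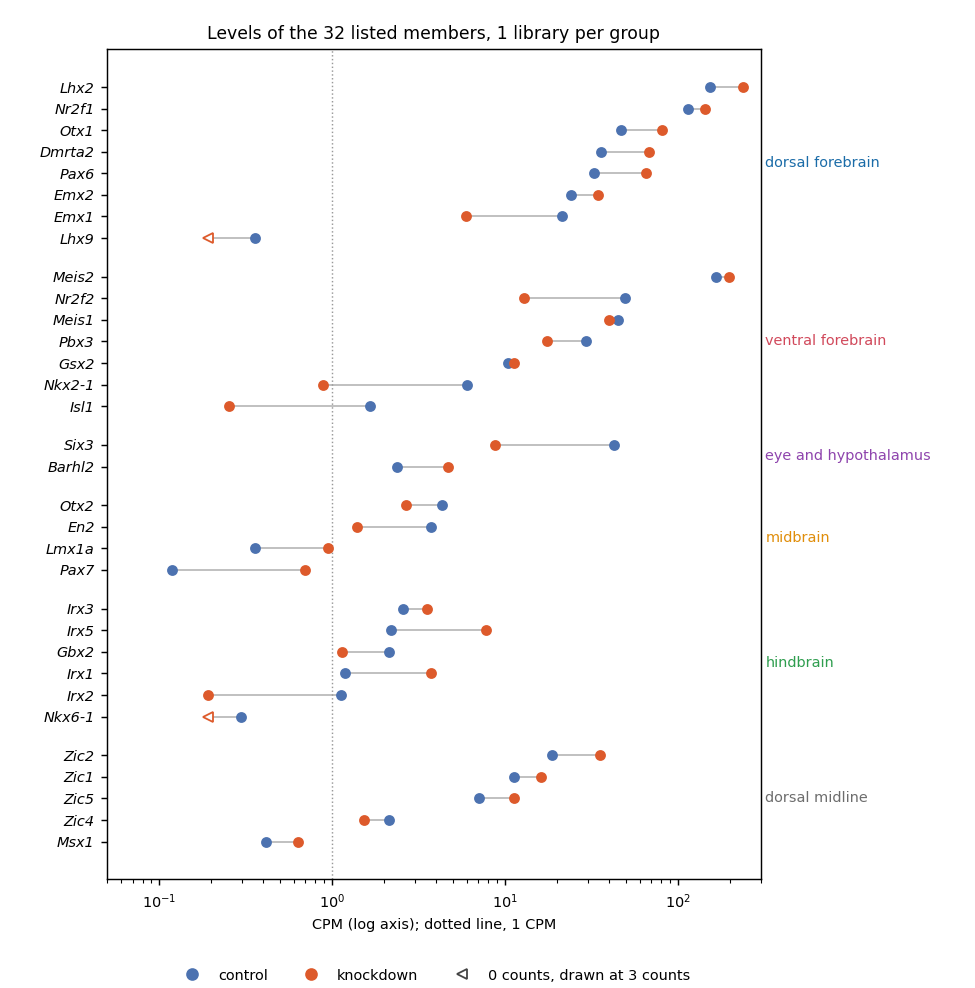
CPM of the 32 listed members in the control (blue) and knockdown (orange) library, on a log axis, grouped by region. The dorsal forebrain members lie at 21.4 CPM or more in the control apart from Lhx9, and members at 0 counts are drawn as open triangles at 3 counts.

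Of the 25 members past 1 CPM, 2 exceeded their control level by 2-fold or more (Irx1 and Irx5), 5 fell short of it by 2-fold or more (Emx1, Nkx2-1, Nr2f2, Six3 and En2) and 18 lay within 2-fold. Over all 14158 genes past 1 CPM, 15.4% differed by 2-fold or more, 7.64% being higher and 7.76% lower. Low counts spread more, so the members were also read by level. Of the 15 members at a mean of 10 CPM or more, 3 were 2-fold lower and 0 higher, where 9.78% of 10187 genes at that level passed 2-fold (4.87% lower, 4.91% higher). Of the 10 members between 1 and 10 CPM, 2 were lower and 2 higher, where 29.8% of 3971 genes did (15.2% lower, 14.7% higher). With these numbers of members the shares are a description of the set. The members' median log2 fold was 0.32, beside -0.0042 over all genes, with 15 members above 0 and 10 below. Of the 26 other genes past 1 CPM whose deposited protein domain hit was a homeobox, 5 were 2-fold higher and 5 lower (38.5% in all, 19.2% in each direction).

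**Figure D2:**
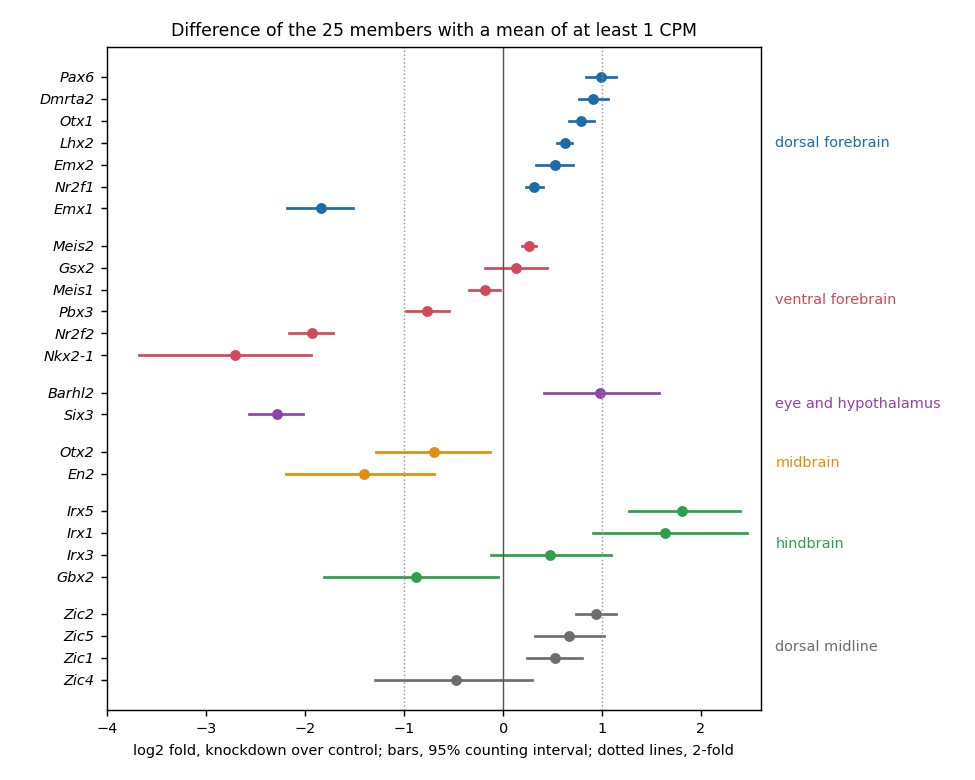
Log2 fold of the knockdown over the control library for the 25 members past 1 CPM, with 95% counting intervals. Of the 7 dorsal forebrain members 6 lie above 0 and Emx1 lies at -1.84, while the ventral forebrain members spread from -2.71 to 0.26.

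Dorsal forebrain factors were higher in the knockdown library in 6 of 7 cases, all within 2-fold, and Emx1 was lower. Pax6, the paired-box factor of cortical radial glia and of the eye (chromosome 2, 105668900 to 105697364, plus strand; positions as in the table, GRCm38), was counted 552 times in control cells and 1025 times after knockdown. These are 32.8 and 65.0 CPM, giving a ratio of 1.98 (1.79 to 2.2), just inside 2-fold. Dmrta2, a doublesex-related factor needed for the cortical hem and medial cortex, had 608 and 1069 counts, giving a ratio of 1.88 (1.70 to 2.08). Otx1, an orthodenticle homologue of the cortex and midbrain, had 785 and 1271 counts, giving a ratio of 1.73 (1.58 to 1.89). These 3 genes lay furthest above their control level in the group.

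Lhx2, a LIM-homeodomain factor that sets cortical against hem identity (chromosome 2, 38339281 to 38369733, plus strand), was counted 2593 times in control cells and 3732 times after knockdown, giving a ratio of 1.54 (1.46 to 1.62). Nr2f1, the nuclear receptor COUP-TFI that marks caudal cortex, had 1927 and 2246 counts, giving a ratio of 1.25 (1.17 to 1.32). These are the most abundant members per kilobase, and their counting intervals do not reach 1. Nr2f1 shares 123 exonic bases with the antisense gene A830082K12Rik, which had 173 and 253 counts. The labels do not say whether reads were counted by strand, so reads in such shared bases could belong to either gene.

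Emx1 and Emx2, homologues of the fly empty spiracles gene that are both active in cortical progenitors, differed in opposite directions. Emx1 (chromosome 6, 85187438 to 85204462, plus strand), which stays on in cortical projection neurons, had 361 control and 94 knockdown counts. That is 21.4 and 5.96 CPM, giving a ratio of 0.278 (0.219 to 0.350). Emx2 (chromosome 19, 59458372 to 59465357, plus strand), which is largely confined to progenitors, had 407 and 546 counts, or 24.2 and 34.6 CPM, giving a ratio of 1.43 (1.26 to 1.63). Per kilobase, Emx1 was 1.22 times Emx2 in the control and 0.237 times Emx2 in the knockdown library. Emx2 shares 264 exonic bases with Emx2os on the other strand, which had 41 counts in each library. Lhx9, a LIM-homeodomain factor of the dorsal diencephalon and pioneer neurons, was counted 6 times in control cells and 0 times after knockdown, too few for more than a listing.

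Among ventral forebrain factors, Nkx2-1 and Nr2f2 were lower and the other 4 past 1 CPM lay within 2-fold. Nkx2-1 (chromosome 12, 56531958 to 56536908, minus strand), the homeodomain factor that specifies the medial ganglionic eminence, was counted 101 times in control cells and 14 times after knockdown. These are 5.99 and 0.888 CPM, giving a ratio of 0.148 (0.0782 to 0.260). It had the lowest ratio of the members past 1 CPM, a minimum it passed through its control level. Nr2f2 (chromosome 7, 70351944 to 70366735, minus strand), the receptor COUP-TFII of the caudal ganglionic eminence and of its migrating interneurons, had 827 and 202 counts, or 49.1 and 12.8 CPM, giving a ratio of 0.261 (0.223 to 0.305). Nr2f2 is also active in mesenchyme and veins. Isl1, a LIM-homeodomain factor of striatal projection neurons, had 28 and 4 counts, giving a ratio of 0.153 (0.0389 to 0.436), and stayed under the 1 CPM minimum.

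Gsx2, the homeodomain factor of lateral ganglionic eminence progenitors, was counted 174 times in control cells and 178 times after knockdown, giving a ratio of 1.09 (0.882 to 1.36). The interval includes 1, and a difference of the size seen for Nkx2-1 lies outside it. Meis1 and Meis2, TALE homeodomain cofactors that are strong in the lateral ganglionic eminence and striatum, had ratios of 0.879 (0.790 to 0.979) and 1.20 (1.14 to 1.26). Meis2, with 2792 and 3128 counts, was the third most abundant member per kilobase in the control. Pbx3, a TALE partner of Meis and Hox proteins, had 498 and 274 counts, giving a ratio of 0.588 (0.505 to 0.683). Meis1 shares 896 exonic bases with an antisense gene and 1029 with another model on its own strand, neither with a row in the table.

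Markers of interneurons and of neurons were mostly lower in the knockdown library. Of the 7 interneuron lineage markers, which include the progenitor factors Dlx1 and Dlx2 beside Dlx5, Dlx6, Gad1, Gad2 and Sst, 0 passed 2-fold upwards and 5 downwards, and the median log2 fold was -2.69. Dlx1 and Dlx2, which start in progenitors, were at -0.04 and 0.36, while Dlx5 and Dlx6, which follow them, were at -2.97 and -2.69. Lhx6, the LIM-homeodomain factor switched on by Nkx2-1 in young interneurons, was counted 450 times in control cells and 69 times after knockdown, for a log2 fold of -2.60. Lhx8, which acts beside it in cholinergic neurons, was at -1.72. Of the 8 neuron markers 0 passed 2-fold upwards and 5 downwards, the median being -1.60, and Map2 alone lay above 0, at 0.11. Of the 7 mesenchyme markers past 1 CPM 6 were lower, with a median of -2.21. Among all genes past 1 CPM, 7.76% were 2-fold lower. The part of these cells in the values of Nkx2-1, Nr2f2, Isl1, Emx1 and Six3 was not tested.

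Eye and hypothalamus factors were few. Six3 (chromosome 17, 85613608 to 85629302, plus strand), the sine oculis homologue of the anterior neural plate, eye field and striatal precursors, was counted 721 times in control cells and 138 times after knockdown. These are 42.8 and 8.75 CPM, giving a ratio of 0.205 (0.169 to 0.246). Six3os1, an RNA of the opposite strand that shares 106 exonic bases with Six3, had 930 and 168 counts, giving a ratio of 0.193 (0.163 to 0.228), so both transcripts of the locus were about equally lower. The shared bases are 1.95% of the Six3 exons. Barhl2, a BarH-like factor of the diencephalon and retina, had 40 and 74 counts, giving a ratio of 1.98 (1.33 to 2.98). Six6 and Rax, the more restricted factors of the eye field, had no row.

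Midbrain factors had few counts, and the 4 listed ones had at most 4.33 CPM in both libraries. En2, the engrailed factor of the midbrain and cerebellum (chromosome 5, 28165694 to 28172166, plus strand), was counted 63 times in control cells and 22 times after knockdown, or 3.74 and 1.4 CPM, giving a ratio of 0.373 (0.219 to 0.615). Otx2, which keeps the midbrain from taking hindbrain identity and is strong in the choroid plexus, had 73 and 42 counts, giving a ratio of 0.615 (0.410 to 0.911). The roof plate and dopaminergic factor Lmx1a had 6 and 15 counts, and Pax7, a paired-box factor of the dorsal midbrain, 2 and 11. Both lay under 1 CPM in each library. Per kilobase, Otx1 was 8.37 times Otx2 in the control and 23.6 times Otx2 in the knockdown library.

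Of the hindbrain members, the Iroquois genes Irx1 and Irx5 were the only ones past 1 CPM in the whole set that stood 2-fold above the control. Iroquois proteins are TALE homeodomain factors of the diencephalon, midbrain and hindbrain, encoded in gene clusters. Irx5 (chromosome 8, 92357625 to 92376286, plus strand) was counted 37 times in control cells and 122 times after knockdown, or 2.2 and 7.74 CPM, giving a ratio of 3.52 (2.42 to 5.24). Its cluster neighbour Irx3, 556 kb away, had 43 and 56 counts, giving a ratio of 1.39 (0.919 to 2.12). Irx1 (chromosome 13, 71957921 to 71963723, minus strand) had 20 and 59 counts, or 1.19 and 3.74 CPM, giving a ratio of 3.15 (1.87 to 5.53). Irx2, 665 kb from Irx1, had 19 and 3 counts, giving a ratio of 0.169 (0.0320 to 0.573). Irx1 and Irx2 had like counts in the control and have ratios with intervals that do not overlap, at low depth in both cases.

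Gbx2, which sets the anterior border of the hindbrain against Otx2, was counted 36 times in control cells and 18 times after knockdown, giving a ratio of 0.534 (0.286 to 0.966). It shares 946 exonic bases, 43.5% of its exons, with D130058E05Rik on the opposite strand, which had 30 and 19 counts, so the value is uncertain if strand was not used. Nkx6-1, a ventral progenitor factor of hindbrain and spinal cord, was counted 5 times in control cells and 0 times after knockdown. Hoxa2 and Hoxb2, the rhombomere factors among the members, had no row, and neither had any of the 24 other Hox genes looked up.

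The Zic genes encode zinc-finger factors of the dorsal midline, septum and cerebellar precursors, and 3 of 4 were higher in the knockdown library within 2-fold. Zic2 (chromosome 14, 122475435 to 122479852, plus strand) was counted 313 times in control cells and 560 times after knockdown, giving a ratio of 1.91 (1.66 to 2.2). Zic5, which lies 9.76 kb from it and points the other way, had 119 and 177 counts, giving a ratio of 1.59 (1.25 to 2.02). The intervals of these neighbours overlap. Zic1 had 189 and 254 counts, giving a ratio of 1.44 (1.18 to 1.74), and Zic4, whose gene overlaps Zic1 on the opposite strand, 36 and 24 counts, giving a ratio of 0.712 (0.407 to 1.23). Zic1 and Zic4 share 60 exonic bases, and their intervals overlap. Msx1, a homeodomain factor of the roof plate, had 7 and 10 counts.

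**Figure D3:**
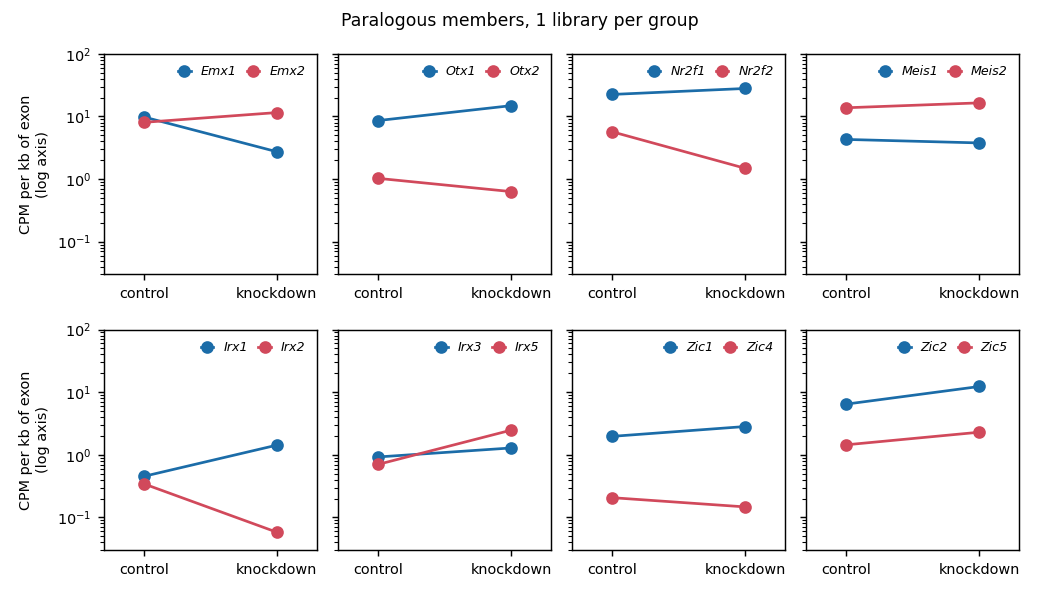
CPM per kilobase of exon (log axis) of 8 pairs of related members in the control and knockdown library. In the Emx, Otx, Nr2f and Irx1/Irx2 pairs the lines slope in opposite directions, as do those of Meis1/Meis2 and Zic1/Zic4 by less, whereas Zic2 and Zic5 run in parallel.

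Set side by side, some related members differed in direction and others did not. Around a median log2 fold of -0.0042 over all genes, any 2 genes will often lie on opposite sides of 0. The log2 fold was -1.84 for Emx1 and 0.52 for Emx2, 0.79 for Otx1 and -0.69 for Otx2, and 0.32 for Nr2f1 and -1.94 for Nr2f2. In each of these 3 pairs the counting intervals do not overlap. Nr2f1 and Nr2f2 encode closely related receptors, and per kilobase Nr2f1 was 3.95 times Nr2f2 in the control and 18.8 times in the knockdown library. Meis1 and Meis2 differed by less, at -0.19 and 0.26, with intervals that also do not overlap. Irx3 and Irx5, at 0.47 and 1.80, lay on the same side of 0, as did Zic2 and Zic5, at 0.93 and 0.67. All these intervals cover counting error only. The pairs were set up from the gene families and not from their values, but after the values were known.

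Other genes of the same families and territories spread to both sides of 0. Over all genes past 1 CPM, 7.64% were 2-fold higher and 7.76% lower. Of 30 family paralogs, 23 had a row and 15 passed 1 CPM. Of these 15, 4 passed 2-fold upwards and 2 downwards, around a median log2 fold of 0.20. Dmrta1, a relative of Dmrta2, was counted 26 times in control cells and 175 times after knockdown, for a log2 fold of 2.82, and Lhx6 and Lhx8 were the 2 lower genes. The other higher genes were Gsx1 at 1.44, Dbx2 at 1.29 and Nkx2-2, a factor of the ventral neural tube and of oligodendrocyte precursors, at 1.26, named after their values were seen. Of 29 other regional factors, 10 passed the minimum, with 1 higher, 2 lower and a median of -0.22. Fezf2, the zinc-finger factor of deep-layer cortical neurons, had 999 and 200 counts, a log2 fold of -2.22. Nr4a2, a nuclear receptor of subplate and dopaminergic neurons, was at -2.02 and Sp8, a zinc-finger factor of rostral progenitors, at 1.29.

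Patterning signals set the territories in which these factors are active. Of 19 such genes, 8 passed 1 CPM, 1 of them higher and 2 lower by 2-fold, around a median log2 fold of 0.07. Either way, 15.4% of all genes past 1 CPM differed by 2-fold or more. Bmp4, a dorsal midline signal, was counted 13 times in control cells and 204 times after knockdown, for a log2 fold of 4.02. At 0.771 and 12.9 CPM, it passed the minimum through its knockdown level. Cyp26b1, which degrades retinoic acid, had 251 and 26 counts, a log2 fold of -3.15. The Wnt agonist Rspo2 had 24 and 10 counts, or 1.42 and 0.634 CPM, and passed the minimum through its control level. Fgf8, Shh and Wnt1, the signals of the anterior ridge, the ventral midline and the isthmus, all stayed under the minimum and were named after their values were seen. Fgf8 had 6 and 1 counts, Shh 17 and 1, and Wnt1 5 and 5.

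Of 17 listed cofactors of these factors, 2 passed 2-fold upwards and 3 downwards, around a median log2 fold of 0.0017. The share of all genes past 1 CPM that passed 2-fold either way was 15.4%. Ldb2, which bridges LIM-homeodomain proteins, was counted 744 times in control cells and 101 times after knockdown, for a log2 fold of -2.78. Its relative Ldb1 was within 2-fold with 4454 and 6129 counts. Dach2, a corepressor of the retinal determination network, was at -1.81, and Eya1, a coactivator of the same network, at 1.44. The groucho corepressor Tle1 had 1114 and 2802 counts, a log2 fold of 1.43, and was named after its value was seen, as were Ldb1 and Lmo2, the latter at -1.13.

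**Figure D4:**
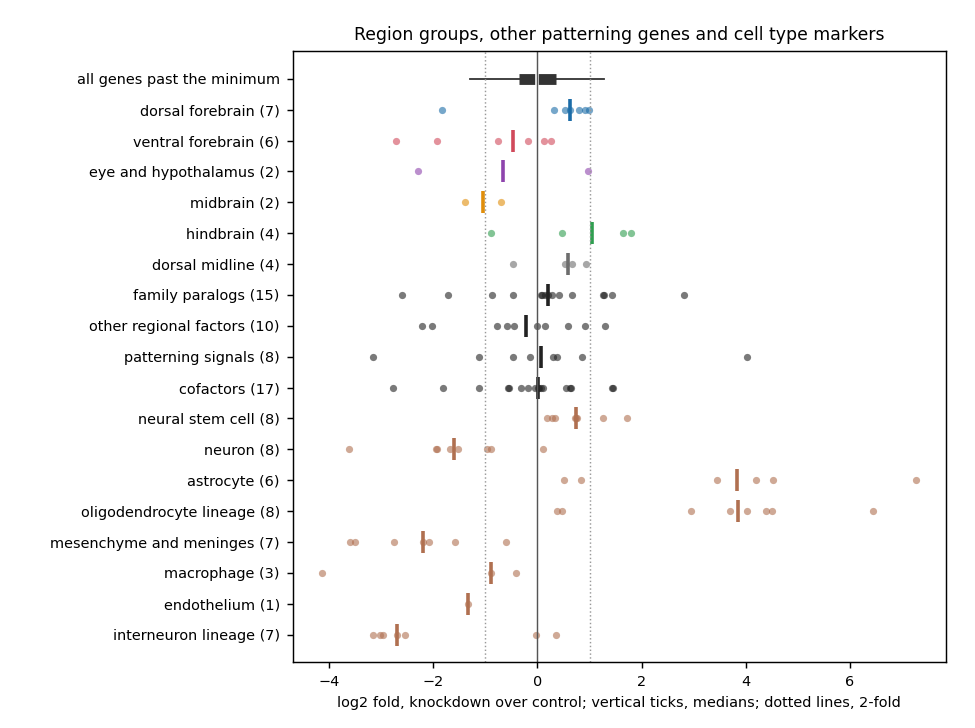
Log2 folds of genes past 1 CPM by region group, other patterning list and cell type marker list, with the number of genes in brackets; the bar for all genes spans the middle 50% and its line the 5th to 95th percentile. The dorsal forebrain median is 0.62 and that of the ventral forebrain -0.48. The medians of neuron, interneuron and mesenchyme markers lie further below 0 and those of astrocyte and oligodendrocyte markers further above it.

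By region group, the median log2 fold was 0.62 for the 7 dorsal forebrain members past 1 CPM, 0.59 for the 4 dorsal midline members and 1.05 for the 4 hindbrain members. It was -0.48 for the 6 ventral forebrain members, -0.66 for the 2 members of the eye and hypothalamus and -1.05 for the 2 midbrain members. The eye and hypothalamus value lies between 2 genes of opposite direction, Six3 at -2.29 and Barhl2 at 0.97, and describes neither. The middle 50% of all genes lay between -0.36 and 0.36. The hindbrain and midbrain medians rest on few genes at low counts and changed sign without the 1 CPM minimum, to -0.21 over 6 and 0.33 over 4 listed genes. The dorsal forebrain members past 1 CPM other than Emx1 moved in the direction of the 8 neural stem cell markers. Emx1, at -1.84, moved the other way. All 8 markers were higher, with a median log2 fold of 0.73. Astrocyte markers were 2-fold higher in 4 of 6 cases and oligodendrocyte lineage markers in 6 of 8. Among all genes past 1 CPM, 7.64% were 2-fold higher. The part of these cell types in the members' values was not tested.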

How the data were processed

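The authors deposited 1 table with raw counts of each gene in each library, per the file headers. It also holds CPM values by the authors, equal to the counts over 1 constant in each library, with 0 entered as 0.5. Their ratio (fold), its log2 and a p-value from an unnamed test are deposited as well, per the file headers, and were not used here. Tools named in the submitters' processing notes are HTSeq 0.6.0, TopHat2 2.0.12 and Bowtie2 2.2.3, with the build mm9 and no settings. Positions follow GRCm38, since 19540 of the 19557 gene IDs found in GENCODE M21 overlapped their position there.

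Counts were scaled with TMM factors (edgeR 4.0.16), which were 1.018 (control) and 0.982 (knockdown). Log2 folds compare knockdown with control after adding 0.5 to each count, and ratios use counts without that addition. With 1 library per group no test was made, and genes were counted at 2-fold among those with a mean of at least 1 CPM. Depth limits precision through the counting intervals, which do not cover PCR copies or spread between cultures. Levels per kb use the union of GENCODE M21 exons. Calculations were tested on simulated data.

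All 40 members are named, and from each list of other patterning genes the 3 past 1 CPM furthest from 0. Cell type markers are given as sums and counts, and those named singly were chosen after their values were seen. A member stands in 1 region group, although many act in several. The members and lists were chosen with earlier results of these data known. Alternatives replaced TMM by DESeq2 1.42.0 size factors, by total counts or by the authors' CPM, set the minimum to 10 CPM or dropped it, added 5 in place of 0.5, or counted genes at 1.5-fold. The promoter windows are from RefSeq (GRCm38.p6), and the windows' motifs were chosen after the members' values were known.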

Additional observations from a re-analysis of the deposited data

How the results depend on the processing

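Leaving out replicates was not possible with 1 library per group, and no paired analysis was possible because each group has 1 column of counts. For each of the 25 members past 1 CPM, the log2 fold stayed inside its counting interval and on its side of 2-fold under the 3 other scalings and the prior count of 5. Scaling moved the median of all genes to between -0.057 and -0.0042.

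The counts depended on the minimum and the threshold. Without a minimum, 4 members were 2-fold higher and 9 lower, with 24.3% of all genes past 2-fold, and 23 genes of the other patterning lists were lower. At a minimum of 10 CPM, 0 members were higher and 3 lower, with 9.78% of all genes past 2-fold, and 4 genes of the patterning lists were higher and 4 lower. Of the cell type markers 10 were then lower. At 1.5-fold, 9 members were higher and 8 lower, beside 31.6% of all genes and 13 higher genes in the patterning lists. The hindbrain median turned to -0.21 and the midbrain median to 0.33 without a minimum, where genes under 1 CPM enter. The ventral forebrain median was -0.77 without a minimum and -0.19 at 10 CPM, and that of the eye and hypothalamus was -2.29 at 10 CPM, which leaves Six3 alone.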

Other observations

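Noncoding RNAs read from the strand opposite a member were looked up after the members' values were known. Six3os1 followed Six3, as given above. B130024G19Rik, which shares 643 exonic bases with Nr2f2, was counted 12 times in control cells and 1 times after knockdown, giving a ratio of 0.0890 (0.00208 to 0.602), in the direction of Nr2f2. A830082K12Rik, beside Nr2f1, had 10.3 CPM against 16.0 CPM after knockdown and a ratio of 1.56 (1.28 to 1.91), in the direction of Nr2f1. Emx2os, with a ratio of 1.07 (0.676 to 1.69), and D130058E05Rik, beside Gbx2, with 0.677 (0.360 to 1.24), had intervals that include 1. Reads of a gene and its antisense partner cannot be told apart in shared bases if strand was not used in counting.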
